A study of Homo sapiens with 11 samples.

Results

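The 10 genes described here belong to the NF-kB pathway: NFKB1, NFKB2, RELA, RELB, NFKBIA, BIRC3, TRAF3, MAP3K14, CYLD and TNFAIP3. They were chosen by symbol as core genes of the pathway, with earlier results of these data known, and all 10 were found in each of 2 tables, among 14434 named genes in the knockdown table and 11062 in the overexpression table. RNA-seq had been done on ARP1, an established human multiple myeloma line described as IgA kappa, in 11 libraries. The knockdown table holds scramble control (replicates 1, 2 and 3) and PHF19 shRNA libraries (replicates 1, 2 and 3). The overexpression table holds PCDH empty vector (replicates 3, 4 and 5) and PHF19 overexpression libraries (replicates 1 and 2). The PHF19 protein joins the histone methyltransferase complex PRC2 as an accessory factor. Per the labels, lentivirus made in HEK293T cells carried the PHF19 plasmid or the empty vector into ARP1 cells, and PHF19-overexpressing cells were then sorted. The sources used here do not give how the shRNA was delivered, whether empty vector cells were sorted, or how many hairpins, clones or cultures were used. Scramble and shRNA samples carry a genotype tag that repeats the overexpression wording, so groups were taken from titles.

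NF-kB transcription factors are dimers of REL-family proteins that inhibitors of the IkB family hold in the cytoplasm. In the classical pathway, IkB kinase triggers degradation of the inhibitor and releases dimers of RELA with the NFKB1 product. In the alternative pathway, the kinase NIK, encoded by MAP3K14, drives processing of the NFKB2 precursor and activity of its dimer with RELB, while TRAF3 and the BIRC3 ligase keep NIK low. TNFAIP3 (A20) and CYLD are deubiquitinases that restrain the pathway. In multiple myeloma, loss of TRAF3, CYLD or BIRC3 and gain of MAP3K14 are known routes to constitutive NF-kB activity.

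Several members are textbook NF-kB targets themselves, so promoter sequence was searched for kB sites. The sites are shown as a description of the members. NFKB2, TNFAIP3, BIRC3 and RELB share a low value in shRNA replicate 1, but matches were not counted over all genes low in that library. Whether kB sites have a part in those values was not tested. RELB had no promoter window and could not be searched. RefSeq promoter windows of GRCh38.p14, 250 bases before to 50 after a gene's start, were matched by symbol for 9 of 10 members, RELB being the exception. Some genes have several windows. The kB consensus, GGGRNWYYCC, is a motif of 10 bases (R is A or G, W is A or T, Y is C or T, N is any base). Searched on both strands, it was found in a window of 7 of these members: NFKB1, NFKB2, NFKBIA, BIRC3, TRAF3, CYLD and TNFAIP3. It was not found in the windows of RELA and MAP3K14, which says only that these letters are not in them. Of all 35116 windows of this length, 5.91% held it. By symbol, 7.09% of 27305 genes held it in any window. Below, each stretch reads 5′ to 3′ on the gene's own strand, capitals mark the match, and the signed number is the position of its leftmost base relative to the start.
NFKB1 at -49: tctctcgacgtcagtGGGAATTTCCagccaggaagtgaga
NFKB2 at -78: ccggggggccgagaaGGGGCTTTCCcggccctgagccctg
NFKB2 at -21: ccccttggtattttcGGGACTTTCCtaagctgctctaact
TNFAIP3 at -67: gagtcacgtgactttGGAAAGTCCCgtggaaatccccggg
TNFAIP3 at -55: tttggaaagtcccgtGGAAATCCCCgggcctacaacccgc
BIRC3 at -199: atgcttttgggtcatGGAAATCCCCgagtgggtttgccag
NFKBIA at -81: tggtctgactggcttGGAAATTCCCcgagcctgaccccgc
TRAF3 at -33: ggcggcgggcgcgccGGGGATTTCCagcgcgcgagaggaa
CYLD at -189: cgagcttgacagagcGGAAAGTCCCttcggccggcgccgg
On GRCh38.p14 these stretches lie at chr4:102501295-102501334 (NFKB1, + strand), chr10:102394485-102394524 and chr10:102395669-102395708 (NFKB2, + strand), chr6:137867177-137867216 and chr6:137867189-137867228 (TNFAIP3, + strand), chr11:102317270-102317309 (BIRC3, + strand), chr14:35404806-35404845 (NFKBIA, - strand), chr14:102777401-102777440 (TRAF3, + strand) and chr16:50741882-50741921 (CYLD, + strand). The 2 NFKB2 stretches come from windows of different starts. NFKB1, NFKBIA, TRAF3 and CYLD are printed because their windows hold the motif too. In shRNA replicate 1 they were at 61.2%, 91.3%, 83.4% and 78.0% of the scramble mean. The stretches are a selection with at least 1 per gene, from 14 matches in all, and the others are in NFKB2 (-176, -107 and -106, the last 2 overlapping), BIRC3 (-135) and CYLD (0). A match is a description of letters, and no binding was measured.

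Values are of FPKM type, scaled for gene length and library size, but the unit is not named in the headers and the depth of each library is unknown. The 2 tables were normalised separately, so each comparison was made within its own table. Listed values summed to 469790 to 525567 per library in the knockdown table. In the overexpression table they summed to 426112, 426016 and 425155 in empty vector replicates 3 to 5. The sums were 498485 and 502349 in overexpression replicates 1 and 2, above every empty vector library. The part of this offset in the fold changes was not tested. Per library of the overexpression table, 70 to 114 genes were listed at exactly 0 while every other library was at 10 or more, against 0 genes in the knockdown table, so a 0 there is given only as listed. A 0 in at least 1 library occurred for 0 of 10 members and 0.239% of genes tested in the knockdown table, and for 2 of 10 members (RELB and MAP3K14) and 15.7% of genes in the overexpression table. PHF19, which checks the labels, was 112.55, 151.69 and 122.95 in scramble and 75.22, 102.81 and 107.73 in shRNA replicates 1 to 3, without overlap (log2 fold change -0.44, adjusted p = 0.147, or 0.0449 with the replicate number as a block). In the overexpression table it was 111, 119 and 115 in empty vector and 227 and 213 in overexpression libraries (0.93, adjusted p = 0.0438). That call ended in 11 of 15 alternatives, among them leaving out empty vector replicate 3 or 4 or overexpression replicate 1 or 2 (adjusted p = 0.149, 0.167, 0.264 and 0.209). Of 10 plasma cell markers 9 were tested in each table, IRF4, XBP1 and SDC1 among them. The summed level of that list was 1751 to 1948 in scramble, 1384 to 1799 in shRNA, 2554 to 3454 in empty vector and 11467 and 4294 in overexpression replicates 1 and 2. JCHAIN alone, the immunoglobulin joining chain, made up 9837 and 2623 of these sums in the 2 overexpression libraries, and MZB1 was listed at 0 in empty vector replicates 3 and 4. Without JCHAIN the sums were 1171 to 1279 in scramble, 649 in shRNA replicate 1, 1140 and 1152 in shRNA replicates 2 and 3, 868.2 to 1754 in empty vector and 1630 and 1671 in overexpression libraries. B cell markers summed to 6.54 to 22.2. Markers of T and NK cells summed to at most 0.96 and those of stromal and endothelial cells to at most 3.40 in any library, with CD2, CD3D and CD3G not among the genes of either table. Myeloid markers summed to at most 2.71, except in overexpression replicate 2 (30.4), where S100A8 was listed at 24.257 and LYZ at 6.16755. Their part in the results was not tested.

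In scramble libraries the alternative pathway subunits led the order of mean levels, which are per length and can be compared between genes. NFKB2 stood at 81.3 ± 10.9 (SD, n = 3), RELB at 65.2 ± 8.49, RELA at 56.8 ± 4.04 and NFKBIA, the IkB-alpha inhibitor, at 47.4 ± 5.99. Neighbours in the order from NFKB2 to NFKBIA overlapped. NFKB1 (32.9 ± 0.898) and TNFAIP3 (22.9 ± 1.93) came next and overlapped neither of their neighbours. TRAF3 (7.82 ± 0.587), MAP3K14 (6.51 ± 1.07) and CYLD (5.77 ± 1.34) overlapped in a row, and BIRC3 was lowest at 2.99 ± 0.175. In empty vector libraries NFKB2 also had the highest mean with 60.0 ± 8.66, NFKBIA was at 51.9 ± 9.89, RELA at 39.4 ± 2.87, TNFAIP3 at 33.0 ± 7.81 and NFKB1 at 25.6 ± 2.87, with RELB listed at 0 in 1 of the 3 libraries. Neighbours from NFKB2 to NFKB1 overlapped, RELB included, and in empty vector replicate 3 NFKBIA (61.5) was above NFKB2 (52.6). BIRC3 (9.52 ± 5.65), TRAF3 (9.33 ± 3.41), CYLD (7.21 ± 1.34) and MAP3K14 (6.69 ± 0.801) lay lower, and their ranges overlapped between neighbours.

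The knockdown comparison asked whether NF-kB genes differ when PHF19 is targeted by shRNA. No member passed limma's test (0 of 10 at adjusted p under 0.05, against 5.52% of the 10880 genes tested: 4.25% higher and 1.28% lower), and 0 of 10 had an unadjusted p under 0.05, against 24.1% of all genes. Of all calls 76.9% were higher, against 64.7% under quantile normalisation and 68.1% under median-of-ratios scaling. The members' count of 0 also came from limma without trend and robust variances and with the replicate block. The log2 fold change was below 0 for 7 of 10 members, against 45.6% of genes, with a median of -0.27 against 0.034 (-0.34 against -0.026 under quantile normalisation). A single library stood apart: in shRNA replicate 1, TNFAIP3, NFKB2, BIRC3 and RELB were at 23.2% to 34.6% of the scramble mean, while shRNA replicates 2 and 3 had 96.9% to 117% for these 4 genes. Whether the labels' replicates are separate cultures is not given, so p-values measure only the spread between these libraries. In bulk RNA, fewer cells expressing a gene and less RNA per cell cannot be told apart.

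NFKB2, which encodes the precursor processed in the alternative pathway, was 68.72, 88.34 and 86.87 in scramble replicates 1 to 3 and 25.7, 83.95 and 86.36 in shRNA replicates 1 to 3. The groups overlapped because 2 of 3 shRNA libraries lay within the scramble range. RELB, its dimer partner, was 55.57, 71.65 and 68.31 in scramble and 22.52, 68.82 and 76.18 in shRNA libraries. The same single library was low, and shRNA replicate 3 was the highest of the 6. With all libraries the log2 fold changes were -0.49 (SE 0.47, adjusted p = 0.572) for NFKB2 and -0.39 (SE 0.45, adjusted p = 0.645) for RELB. Without shRNA replicate 1 both turned positive, at 0.075 (SE 0.13, adjusted p = 0.789) and 0.16 (SE 0.13, adjusted p = 0.518). The ratio of NFKB2 to NFKB1 levels was 2.11 to 2.73 in scramble, 1.27 in shRNA replicate 1 and 2.73 and 3.001 in shRNA replicates 2 and 3. RELB divided by RELA was 0.919 to 1.37 in scramble, 0.414 in shRNA replicate 1 and 1.39 and 1.49 in the other shRNA libraries. These ratios were chosen after the values were seen.

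The subunits of the classical pathway differed less from scramble in that library. NFKB1, which encodes the precursor of the p50 subunit, was 32.5, 32.34 and 33.97 in scramble and 20.16, 30.74 and 28.78 in shRNA libraries. It was the 1 member of 10 whose groups did not overlap, against 32.0% of all genes tested (13.0% lower and 19.0% higher). Its log2 fold change was -0.32 (SE 0.16, adjusted p = 0.245, and 0.129 with the replicate block). Without shRNA replicate 1 the change was -0.14 (adjusted p = 0.493). RELA, the main transactivating subunit, was 60.48, 52.47 and 57.35 in scramble and 54.41, 49.46 and 51.2 in shRNA libraries. Its groups overlapped, shRNA replicate 1 was at 95.8% of the scramble mean, and the log2 fold change was -0.13 (adjusted p = 0.517).

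**Figure D1:**
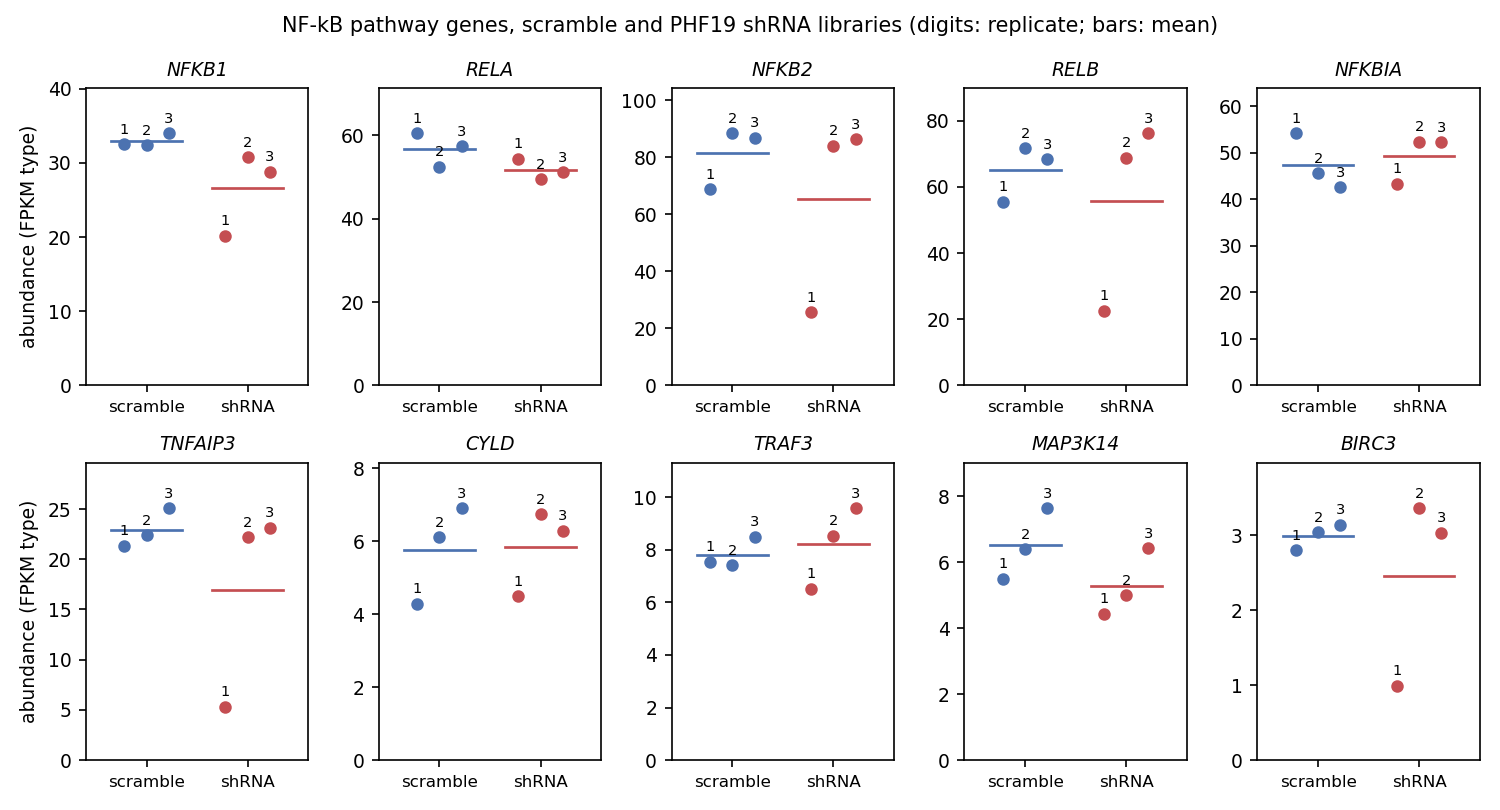
Abundance (FPKM type, linear axis from 0) of the 10 members in 3 scramble and 3 PHF19 shRNA libraries, 1 panel per gene, with points numbered by replicate and horizontal bars at the group mean. In the panels of NFKB2, RELB, TNFAIP3 and BIRC3, shRNA replicate 1 lies far below every other point, and shRNA replicates 2 and 3 lie among or near the scramble points.

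Among the inhibitors and deubiquitinases, TNFAIP3, whose product edits ubiquitin chains to end signalling, was 21.35, 22.37 and 25.09 in scramble and 5.32, 22.22 and 23.13 in shRNA libraries. It had the lowest share of the scramble mean of all members in shRNA replicate 1 (23.2%), and shRNA replicates 2 and 3 lay inside the scramble range. Its log2 fold change of -0.65 (SE 0.52, adjusted p = 0.4997) became -0.013 (SE 0.12, adjusted p = 0.965) without shRNA replicate 1. NFKBIA, a target whose promoter window also holds a kB match, was 54.13, 45.53 and 42.6 in scramble and 43.29, 52.3 and 52.23 in shRNA libraries. The groups overlapped and shRNA replicate 1 was within the scramble range (91.3% of its mean; log2 fold change 0.056, adjusted p = 0.834). CYLD was 4.29, 6.11 and 6.91 in scramble and 4.5, 6.74 and 6.29 in shRNA libraries (0.020, adjusted p = 0.960, and below 0 under quantile normalisation and median-of-ratios scaling). In each group CYLD was lowest in replicate 1.

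Of the genes that control the alternative pathway, BIRC3 (cIAP2) was 2.8, 3.04 and 3.14 in scramble and 0.99, 3.36 and 3.03 in shRNA libraries. Again shRNA replicate 1 alone was low, at 33.1% of the scramble mean (log2 fold change -0.29, SE 0.27, adjusted p = 0.550, and 0.071 without that library). TRAF3, the adaptor that brings NIK to the ligase, was 7.55, 7.41 and 8.49 in scramble and 6.52, 8.53 and 9.58 in shRNA libraries (0.051, adjusted p = 0.874, and below 0 under quantile normalisation). MAP3K14, the NIK gene, was 5.5, 6.4 and 7.64 in scramble and 4.44, 5 and 6.42 in shRNA libraries (-0.26, adjusted p = 0.392). TRAF3 and MAP3K14 overlapped between groups. Set against the scramble library of the same number, each shRNA library was lower for 5 of 10 members, against 24.2% of genes tested. For replicates 1, 2 and 3 these shares were 80.7%, 78.1% and 84.0% for MAP3K14 and 90.0%, 94.3% and 89.3% for RELA. They were 62.0%, 95.1% and 84.7% for NFKB1, 37.4%, 95.0% and 99.4% for NFKB2, and 24.9%, 99.3% and 92.2% for TNFAIP3. With the replicate block none of the 5 passed by limma (adjusted p = 0.195 for MAP3K14, 0.392 for RELA, 0.129 for NFKB1, 0.300 for NFKB2 and 0.353 for TNFAIP3).

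**Figure D2:**
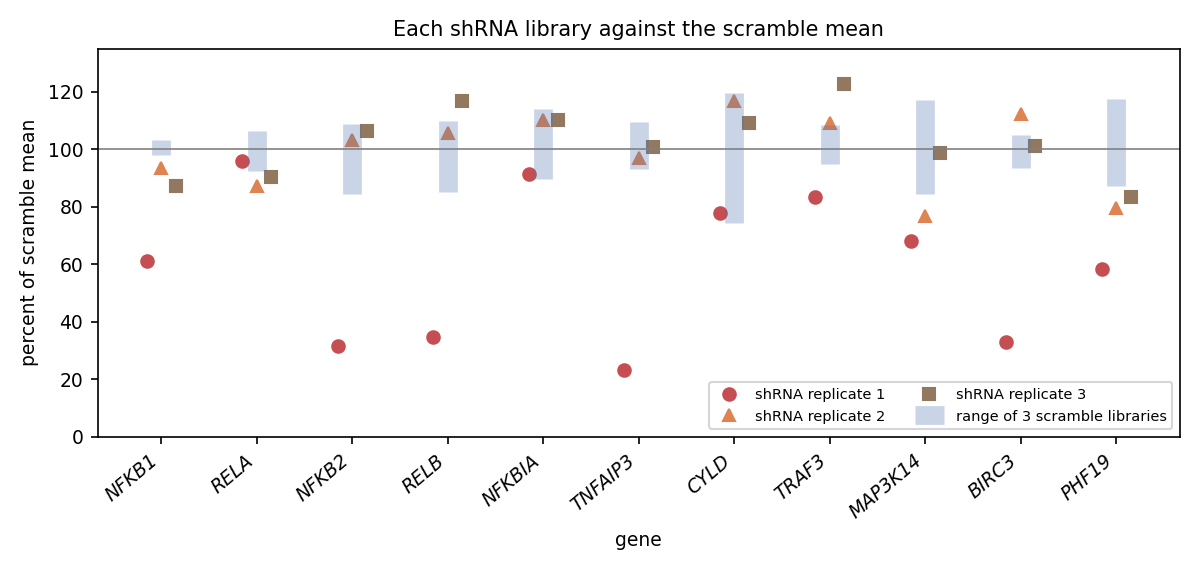
Each shRNA library as a percent of the mean of the 3 scramble libraries (axis from 0), for the 10 members and PHF19, with blue bars for the range of the scramble libraries. TNFAIP3, NFKB2, BIRC3 and RELB are at 23.2% to 34.6% in shRNA replicate 1, and RELA and NFKBIA are at 95.8% and 91.3% in the same library.

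The 4 low members were also set against all genes, by a measure chosen after their values were seen and therefore not tested. A gene was counted as low in a library when its value was at most 0.5 times the lowest of the other 5. In shRNA replicate 1 this held for 4 of 10 members and for 125 of 10880 genes (1.15%). In the other 5 libraries it held for 0 of 10 members and for 0.11% to 0.579% of genes. In the opposite direction, 105 genes of shRNA replicate 1 were at least 2 times the highest other library, 0 of them members. Ranked by the difference between shRNA replicate 1 and the mean of the other 5 on the log2(value + 1) scale, TNFAIP3 was number 17 from the lowest of all genes (-1.91), NFKB2 number 23 (-1.65), RELB number 29 (-1.55) and BIRC3 number 123 (-1.03). NFKB1 followed at number 693 (-0.62). The other 5 members ranged from -0.39 for MAP3K14 to 0.0096 for RELA, and the median of all genes was -0.039. PHF19 was also lowest in that library, at 58.3% of the scramble mean against 79.7% and 83.5% in shRNA replicates 2 and 3. Library 1 of the shRNA group had more genes far from all other libraries in each direction than any other knockdown library, and what sets it apart was not tested.

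The genes with the pattern most like 2 members were found by the root mean square difference of log2(value + 1) over the 6 libraries, each gene centred on its mean, with the other 10879 genes tested as candidates. The members were the 2 with the largest absolute fold change, TNFAIP3 and NFKB2. For NFKB2 the nearest gene of all was RELB (0.0618), then CD44 (0.119), a hyaluronan receptor, and MYB (0.130), a transcription factor. For TNFAIP3 the nearest were CD44 (0.0978), NFKB2 (0.137) and PIM1 (0.147), a serine/threonine kinase. CD44 was 32.34, 32.94 and 38.72 in scramble and 9.96, 33.79 and 32.59 in shRNA libraries, PIM1 was 20.15, 26.08 and 23.32 and then 4.27, 20.42 and 20.32, and MYB was 14.23, 14.28 and 16.81 and then 4.76, 18.18 and 16.92. All these genes share the low value in shRNA replicate 1.

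Of 57 other pathway genes, 50 were tested, and 2 were called higher and 1 lower in shRNA libraries. These 3 of 50 are near the 5.52% called over all genes, and 13 of 50 had an unadjusted p under 0.05, against 24.1%. The list had a median log2 fold change of 0.056 against 0.034 for all genes. By role, 1 of 12 kinases, 1 of 15 adaptors and ubiquitin ligases and 1 of 6 receptors and ligands was called, and 0 of 11 brakes and 0 of 6 other REL and IkB genes by limma (unadjusted p under 0.05 for 0 of 11 and 0 of 6, and 0 of each without trend and robust variances). RBCK1 (HOIL-1), a subunit of the linear ubiquitin ligase, rose from 19.18, 21.97 and 20.66 in scramble to 32.29, 34.71 and 39.9 in shRNA libraries (log2 fold change 0.76, SE 0.13, adjusted p = 0.0154). IKBKG (NEMO), the regulatory subunit of IkB kinase, rose from 11.4, 12.4 and 13.63 to 17.76, 18.7 and 18.12 (0.51, SE 0.13, adjusted p = 0.0451). In these 2 genes all 3 shRNA libraries lay above all scramble libraries, as in 19.0% of all genes tested. IKBKG shares sequence with a near-identical partial copy, so its value is uncertain. TNFRSF13B (TACI), a receptor for the plasma cell survival factors BAFF and APRIL, fell from 3.34, 3.44 and 4.48 to 0.46, 1.85 and 1.95 (-1.03, SE 0.26, adjusted p = 0.0492). The TNFRSF13B call ended at a pseudocount of 0.5 (adjusted p = 0.0607) or 0.1 (0.0818), with no filter (0.0907) and without trend and robust variances (0.0562), and the gene was not tested with a filter at 5. The IKBKG call ended with no filter (0.0659) and without trend and robust variances (0.0533).

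All 3 calls held without shRNA replicate 1 but ended without some other single libraries. Without shRNA replicate 1, RBCK1 was at 0.82 (adjusted p = 0.00617), IKBKG at 0.53 (0.0471) and TNFRSF13B at -0.70 (0.0392). TNFRSF1B, a TNF receptor, passed only then among the removals of 1 library (-0.49, 0.0399). RBCK1 also passed without shRNA replicate 2 (0.0382), where IKBKG (0.111) and TNFRSF13B (0.0558) did not. No list gene passed without scramble replicate 1, 2 or 3 or without shRNA replicate 3, fits that called 54, 58, 164 and 180 genes in all. With the replicate block 8 list genes passed: TNFRSF1B (-0.82, adjusted p = 0.0437), UBE2N (-0.45, 0.0330), IRAK4 (0.45, 0.0353), TNFRSF1A (0.47, 0.0366) and CCL3 (0.57, 0.0224) in addition to RBCK1, IKBKG and TNFRSF13B. Their values without the block were adjusted p = 0.0799 for TNFRSF1B, 0.0592 for UBE2N, 0.0563 for IRAK4, 0.175 for TNFRSF1A and 0.0503 for CCL3.

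Other named genes of the lists did not pass. Among adaptors, UBE2N, the enzyme that builds K63-linked chains, was 61.9 ± 5.59 in scramble and 45.0 ± 3.20 in shRNA libraries, and SHARPIN, a partner of RBCK1, was 15.4 ± 0.429 and 20.5 ± 1.72 (adjusted p = 0.0929). Among kinases, IRAK4 was 18.4 ± 1.21 and 25.5 ± 1.22, and TAB3 was 5.19 ± 0.720 and 7.29 ± 0.227 (adjusted p = 0.113). Among brakes, NKIRAS1 (adjusted p = 0.361), COMMD1 (0.410) and TNIP1 (0.475) had log2 fold changes of 0.41, 0.27 and -0.15. NKIRAS1 was at 2.53 in shRNA replicate 1 and at 6.87 and 4.96 in replicates 2 and 3, and passed without replicate 1 (0.73, adjusted p = 0.0392). Among other REL and IkB genes, NFKBID was at 2.22 in shRNA replicate 1 and at 7.74 and 5.95 in replicates 2 and 3 (-0.61, adjusted p = 0.270), BCL3 was at -0.27 (0.338) and REL at 0.18 (0.506).

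The list of 37 transcriptional targets of NF-kB, from general knowledge but chosen with earlier results of these data known, had 23 genes tested. Of these 0 were called by limma, against 5.52% of all genes, 4 of 23 had an unadjusted p under 0.05, against 24.1%, and 0 were called without trend and robust variances. CCL3, a chemokine, was 34.7 ± 6.49 in scramble and 51.4 ± 0.907 in shRNA libraries, MYC was 247 ± 14.5 and 177 ± 37.3 (-0.50, adjusted p = 0.103), and CCL5 was 44.6 ± 4.87 and 57.1 ± 6.16 (0.35, adjusted p = 0.141). In shRNA replicate 1, 8 of the 23 were at most 0.5 times the lowest other library, against 1.15% of all genes: CD44, CXCL10, CCND2, IL2RG, IER3, EBI3, SDC4 and WNT10A. This measure has no minimum level beyond the filter, and some of these genes were low throughout. In the other knockdown libraries WNT10A was 0.66 to 1.7, EBI3 0.76 to 1.84, SDC4 2.37 to 3.38 and IER3 2.32 to 3.87. CCND2, cyclin D2, was 54.78, 54.03 and 62.09 in scramble and 22.07, 57.74 and 59.29 in shRNA libraries. IL2RG, the common cytokine receptor gamma chain, was 98.05, 109.13 and 105.7 and then 38.24, 89.52 and 87.91. These genes were singled out after their values were seen. Not every target was low there: GADD45B (15.38), BCL2L1 (13.59) and CCL5 (63.82) were higher in shRNA replicate 1 than in any other knockdown library.

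Of the other pathway genes 3 of 50 were low by the same measure, NFKBID, TNFRSF13B and LTB, the last at only 0.92 to 1.3 in the other knockdown libraries. In the comparison of shRNA replicate 1 with the mean of the other 5 libraries, the median log2 difference was -0.51 for members, -0.053 for other pathway genes, -0.42 for targets and -0.039 for all genes. For shRNA replicates 2 and 3 against scramble the medians were 0.073, 0.11, -0.041 and 0.052. Most plasma cell markers were also lower in shRNA replicate 1, with a median of -0.95 over 9 genes and 1 of 9 low by the measure above, SLAMF7. Others were not: JCHAIN was 734.67 there, above the 517.3 to 668.06 of the other libraries, and POU2AF1 was 15.13 against 9.76 to 18.26. XBP1 was 213.96 there against 359.86 to 524.58 in the other libraries and MZB1 104.28 against 205.73 to 322.26, while PRDM1 was 71.27 against 62 to 86.98. The part of cell state or RNA quality in these values was not tested.

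**Figure D3:**
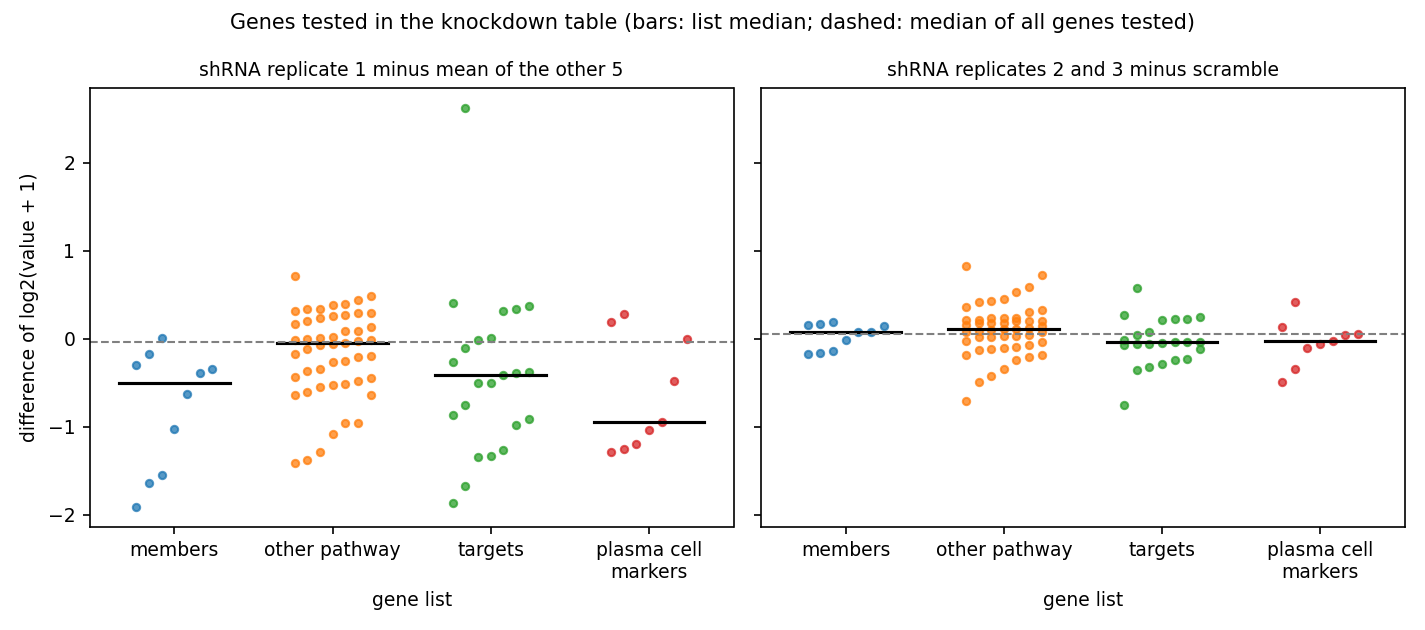
Differences of log2(value + 1) for each gene tested in 4 lists (points; horizontal position within a list has no meaning), with list medians as bars and the median of all genes as a dashed line. On the left, shRNA replicate 1 minus the mean of the other 5 libraries spreads down to -1.91 for members, and on the right, shRNA replicates 2 and 3 minus scramble stay close to the median of all genes for members.

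The authors' deposited table gives p-values of 1.05e-39 for NFKB2, 5.16e-32 for TNFAIP3, 3.32e-20 for NFKB1 and 3.39e-13 for RELB. Of the 10 members, 7 are under 0.05 in the authors' deposited table, against 71.5% of the genes tested here. The 3 others in the authors' deposited table are TRAF3 (0.122), NFKBIA (0.285) and CYLD (0.674). The sources used here do not say how that test treated the replicates.

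The overexpression comparison asked whether the same genes differ between PHF19-overexpressing and empty vector cells. By limma 0 of 10 members passed, against 0.914% of the 10279 genes tested (0.613% higher and 0.302% lower), and 0 passed without trend and robust variances. RELA and CYLD had an unadjusted p under 0.05, 2 of 10 members against 11.5% of genes. Groups did not overlap for 4 of 10 members, against 34.2% of genes (23.1% higher and 11.1% lower): RELA, RELB and CYLD were higher and MAP3K14 was lower in overexpression libraries. The log2 fold change was below 0 for 3 of 10 members, against 40.1% of genes. Its median was 0.28 over members and 0.087 over all genes, and under quantile normalisation these were 0.14 and -0.045. With quantile normalisation the log2 fold change was 0.38 for RELA, 0.50 for CYLD, 0.21 for NFKB2, 0.070 for NFKBIA and 0.0077 for NFKB1. Each of these was smaller than the value without it, given below.

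RELA was 39.3, 42.3 and 36.6 in empty vector replicates 3 to 5 and 56.9 and 58.7 in overexpression replicates 1 and 2. Both overexpression libraries lay above all empty vector libraries, at 57.8 ± 1.25 (SD, n = 2) against 39.4 ± 2.87 (n = 3). The log2 fold change of 0.54 (SE 0.11) did not pass (adjusted p = 0.273), and passed only with estimated library weights (0.45, adjusted p = 0.0265), a fit that called 1729 genes in all against 94. In the authors' deposited table its p is 0.00975, and 2 of 10 members are under 0.05 there, RELA and RELB, against 12.2% of genes. RELB was listed at 0 in empty vector replicate 3, and was 41.1 and 50.7 in empty vector replicates 4 and 5 and 75.6 and 78.2 in overexpression libraries. Without replicate 3 the log2 fold change was 0.74 (SE 0.16, adjusted p = 0.439). The fit with all libraries rests on the listed 0 (adjusted p = 0.664), and the authors' deposited table gives p = 0.00231.

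NFKB2 was 52.6, 57.9 and 69.5 in empty vector and 68.6 and 85.9 in overexpression libraries, which overlapped (0.36, SE 0.18, adjusted p = 0.530). NFKB1 was 28.4, 25.8 and 22.7 and then 29.0 and 27.7, also with overlap (0.14, adjusted p = 0.717). NFKBIA was 61.5, 52.6 and 41.7 and then 55.3 and 65.4 (0.23, adjusted p = 0.710). TNFAIP3 was 31.2, 26.3 and 41.6 and then 31.4 and 29.8 (-0.081, adjusted p = 0.916). Neither inhibitor gene separated the groups, and empty vector replicate 5 was the highest library for TNFAIP3 and the lowest for NFKBIA.

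CYLD was 5.93, 7.10 and 8.60 in empty vector and 10.4 and 12.7 in overexpression libraries, without overlap (0.61, SE 0.20, adjusted p = 0.393, and 0.0382 with library weights). MAP3K14 was 6.41, 6.07 and 7.59 in empty vector and 4.55 in overexpression replicate 1, and was listed at 0 in overexpression replicate 2. Its adjusted p = 0.504 with all libraries, 0.0492 with only the library listed at 0 and 0.959 with only overexpression replicate 1, where the lone library is assumed to vary like the other group. TRAF3 was 13.3, 7.23 and 7.51 in empty vector and 17.3 and 7.68 in overexpression libraries (0.33, adjusted p = 0.804), so each group held 1 high library. BIRC3 was 6.76, 5.78 and 16.0 and then 8.18 and 5.88 (-0.28, adjusted p = 0.854), with empty vector replicate 5 apart from the rest.

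**Figure D4:**
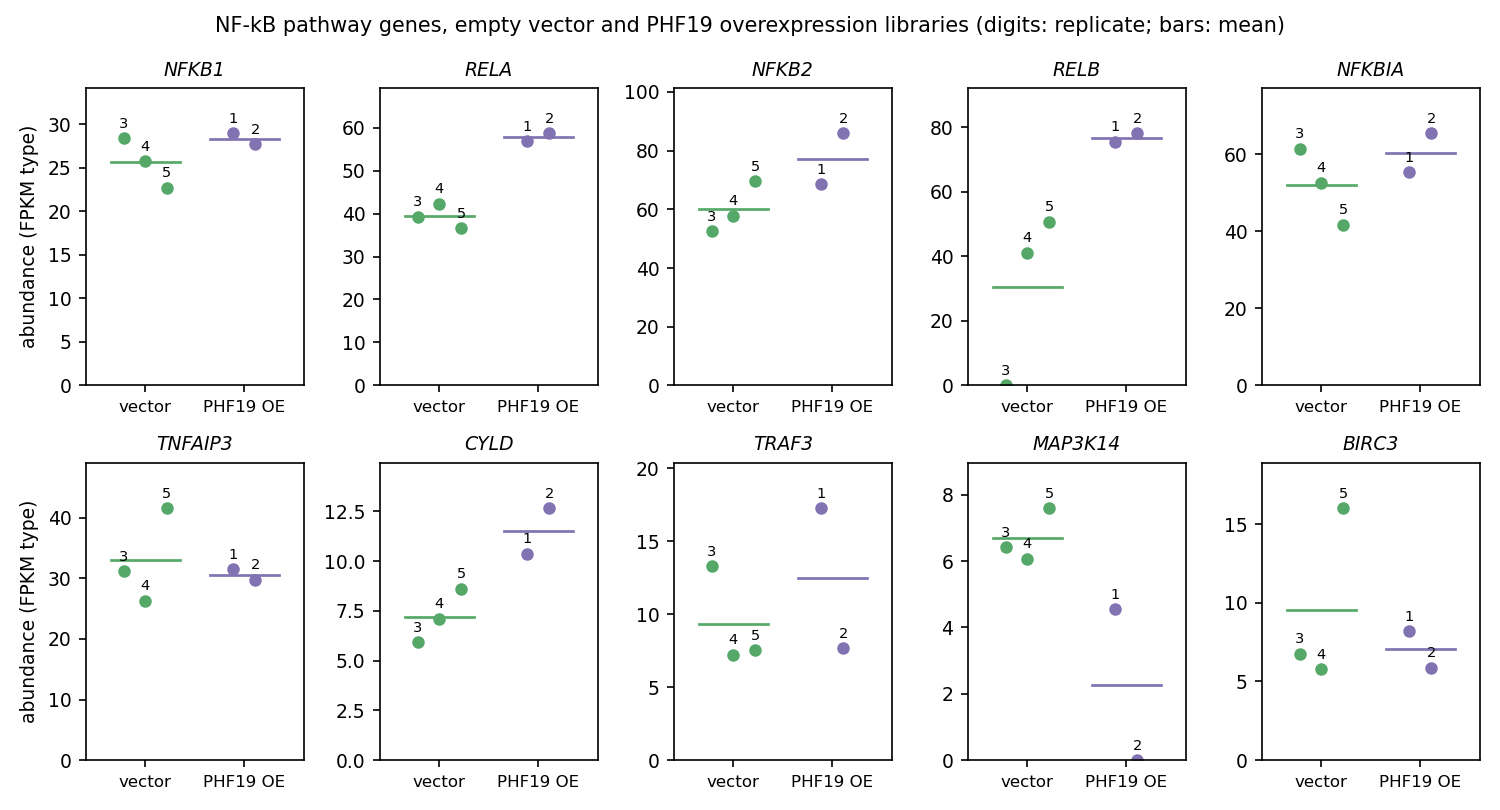
Abundance (FPKM type, linear axis from 0) of the 10 members in 3 empty vector and 2 PHF19 overexpression libraries, 1 panel per gene, with points numbered by replicate and horizontal bars at the group mean. RELA and CYLD do not overlap between groups, and the points on the 0 line are the listed 0 of RELB in empty vector replicate 3 and of MAP3K14 in overexpression replicate 2.

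Of the other pathway genes 44 were tested for overexpression and 0 were called by limma, against 0.914% of all genes, with 3 of 44 at an unadjusted p under 0.05, against 11.5%, and 0 called without trend and robust variances (median log2 fold change 0.043). Of 22 targets tested 0 were called by limma, with 3 of 22 at an unadjusted p under 0.05, against the same shares, and 0 called without trend and robust variances (median 0.32). Brakes had the highest median of the pathway groups, 0.41 over 9 genes, of which 6 had groups that did not overlap, all 6 higher, against 23.1% of genes in that direction. This list was singled out after the values were seen, and 0 of its 9 genes were called. Its median was not computed under other scalings, while listed values summed higher in both overexpression libraries than in any empty vector library. TNIP2, an A20-binding inhibitor of NF-kB, was 23.7, 23.5 and 23.8 in empty vector and 29.6 and 35.4 in overexpression libraries (0.44, adjusted p = 0.352). TNIP1, a related A20 partner, was 43.9, 46.1 and 70.3 and then 78.9 and 84.9 (0.64, adjusted p = 0.446), and SPATA2, which links CYLD to the linear ubiquitin ligase, was 3.04, 3.08 and 2.94 and then 4.003 and 4.69 (0.41, adjusted p = 0.420).

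SHARPIN was 7.75, 8.56 and 8.50 in empty vector and 14.2 and 15.9 in overexpression libraries (0.79, adjusted p = 0.165). UBE2N was at -0.68 (adjusted p = 0.457) and RBCK1 at 0.48 (0.521). Among kinases TAB3 (0.38, adjusted p = 0.493), IKBKG (0.23, 0.706) and IRAK4 (0.085, 0.789) had the smallest adjusted p. Of the other REL and IkB genes REL was at -0.34 (0.483), BCL3 at 0.36 (0.581) and NFKBID at -0.15 (0.880). TNFRSF13B was 3.40, 9.24 and 7.70 in empty vector and 3.06 and 3.21 in overexpression libraries (-0.82, adjusted p = 0.534), and TNFRSF1A was at 0.41 (0.678). TNFRSF17, the BCMA receptor, was listed at 0 in empty vector replicates 3 and 4 and was 105 in replicate 5 and 86.9 and 91.9 in overexpression libraries. Among targets, CD44 was 51.1, 49.6 and 55.1 and then 71.8 and 70.6 (0.45, adjusted p = 0.308), MYC was 182, 198 and 182 and then 237 and 252 (0.38, adjusted p = 0.326), and CXCL10 was 36.6, 26.3 and 27.9 and then 17.1 and 17.0 (-0.78, adjusted p = 0.314). For these 3 genes the groups did not overlap, as for 7 of 22 targets tested and 34.2% of all genes, and none passed by limma.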

How the data were processed

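The authors deposited 2 tables of abundances recorded here as FPKM. Their headers give no unit, so RPKM or TPM would also be possible. The submitters' processing notes name TopHat, without a version, and the build hg19. The sources used here name no quantifier and no filter on genes. The authors deposited p-values per gene from a test that is not given. The knockdown values are rounded to 2 decimals, and 24 of its symbols had become dates and were left out. Depth is unknown, so no interval or floor was computed.

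Genes reaching 1 in at least 3 (knockdown) or 2 (overexpression) libraries were tested with limma-trend and robust variances (limma 3.58.1, R 4.3.3) on log2(value + 1), treated minus control, two-sided. P-values were adjusted by Benjamini-Hochberg over every tested gene, and the threshold was 0.05. Fold changes on that scale understate changes of low genes. In simulated data the knockdown fit (10208 genes) recovered 75% of genes changed by 1 on the log2 scale and 99% of those changed by 2, and the overexpression fit (8152 genes) 49% and 80%. The simulation used only genes at 1 or more in every library and changed only those with a control mean of log2(value + 1) above 2. Noise was normal and independent, with no listed 0 in the source genes and no library apart. These shares therefore do not carry over to low genes, listed 0 values or an outlying library. Tables, motif counts and plots were made with Python 3.11.15, pandas 2.3.3, numpy 2.4.6 and matplotlib 3.10.9.

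Members and lists were chosen with earlier results of these data known. Named genes were the members, PHF19, list genes past the threshold or, where fewer than 3 of a list passed, its 3 smallest adjusted p, and the 3 nearest genes of 2 members. Equal replicate numbers occur in the knockdown groups, and deviations from group means correlated at 0.341, 0.271 and 0.273 for equal numbers and at -0.277 to 0.0937 for others. No label states this pairing. The replicate number was used as a block in an alternative. Promoter windows are RefSeq's on GRCh38.p14, and no hg19 coordinates are given.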

Additional observations from a re-analysis of the deposited data

How the results depend on the processing

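In the knockdown arm 0 members were called under all 16 alternatives. The 601 calls over all genes (462 higher, 139 lower, against 378 and 206 under quantile normalisation) became 269 with no filter, 3156 with library weights, 40 at a threshold of 0.01, 1292 with the replicate block (paired by number) and 54 to 629 without single libraries. The 3 calls among pathway and target genes became 1 without trend and robust variances, 1 with no filter, 17 with library weights, 0 at a threshold of 0.01, 8 with the replicate block and 0 to 5 without single libraries. The block changed no member's call.

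Directions turned for some members. TRAF3 was -0.057 and CYLD -0.10 under quantile normalisation, CYLD -0.014 under median-of-ratios scaling and RELB 0.010 with library weights. Without single libraries CYLD was -0.15 to 0.17, NFKBIA -0.016 to 0.15, TRAF3 -0.057 to 0.19, NFKB2 -0.78 to 0.075, RELB -0.70 to 0.16 and BIRC3 -0.49 to 0.071, where NFKB2, RELB and BIRC3 were above 0 only without shRNA replicate 1. The cause was not tested.

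In the overexpression arm members were called only with library weights (2: RELA and CYLD) and without overexpression replicate 1 (MAP3K14), so leaving out single libraries gave 0 to 1. The 94 calls over all genes became 36 with a filter at 5, 61 at a pseudocount of 0.1, 1729 with library weights, 0 when genes with a 0 were left out (limma, 8665 genes) and 107 to 350 without single libraries. Pathway and target calls, 0 with all libraries, became 14 with library weights and 0 to 1 without single libraries other than empty vector replicate 5, and 5 without it. BIRC3 was 0.18 and TNFAIP3 0.17 with library weights, and without single libraries BIRC3 was -0.53 to 0.13, TNFAIP3 -0.23 to 0.094 and TRAF3 -0.20 to 0.87. Where 1 overexpression library remained, it is assumed to vary like the empty vector group. No paired analysis was possible because the overexpression groups share no replicate number. Unknown depth and 2 or 3 libraries per group limit the precision.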

Other observations

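PSMB9 was high in replicate 1 of both knockdown groups. This immunoproteasome subunit gene was at 13.78 in scramble replicate 1 and 17.12 in shRNA replicate 1, and 0.52 to 1.23 in the other 4 knockdown libraries. CD74, the MHC class II invariant chain, was 588.07 in scramble replicate 1 and 255.8 to 404.69 in the other 5 libraries. Neither was called by limma between groups (adjusted p = 0.922 for PSMB9 and 0.794 for CD74). Both were picked after their values were seen.

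The 125 genes that were low in shRNA replicate 1 included, beside the NF-kB members, CXCR4, the chemokine receptor of plasma cell homing, the kinase genes PIM1 and PIM2, ZC3H12A, a ribonuclease gene, and IRF8. These names were chosen after the values were seen, and no test was made.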
